A study of Mus musculus with 16 samples.

Results

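Complement and coagulation factors are plasma proteins made largely by hepatocytes, and 44 of their genes were followed in liver RNA-seq of mice given G108, a long-acting agonist of the glucagon receptor, on diets of standard or high protein content. The 44 genes were named by symbol, 24 of complement and 20 of coagulation and fibrin breakdown. Each symbol matched 1 of the 55487 gene rows of the deposited table. All 16 animals were male C57BL6/J mice, without any stated genetic change, that had been made obese on a high-fat diet. The sample records give 8 weeks of high-fat feeding from an age of 10 weeks, then a 22 day treatment and a cull on day 25 after a 4 h fast. The study's methods give another age and last day. They divide the feeding before treatment between a first high-fat diet and the SP or HP diet described below. Animals were housed singly and ate freely. They received either the high-fat standard protein diet (SP) or the high-fat high protein diet (HP), with a daily injection under the skin of vehicle or of G108 at 2.5 nmol/kg, which made 4 groups of 4 mice, named here by injection and diet (such as G108 HP). Below, mice are given in the order of their number within a group, 1 to 4, and a number carries no pairing between groups.

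Complement is a cascade of plasma proteins that marks microbes and damaged cells. It starts at C1 bound to antibody (classical), at mannose-binding lectins (lectin) or by itself (alternative), and all 3 starts meet at the cleavage of C3, after which C5 and the terminal components form a pore in the target membrane. Coagulation runs through serine proteases, several of which need vitamin K for their calcium-binding residues, to thrombin, which turns fibrinogen into fibrin, and plasmin later dissolves the clot. Because these proteins and their transcripts are abundant in liver, they offer a measure of secretory output other than the major urinary proteins (Mup), a family of small carrier proteins that male mouse liver makes in very large amounts.

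Levels are TPM, each gene's share of all transcripts in a library, corrected for gene length and scaled to a fixed total, so that levels can be compared between genes. A library with less Mup has more TPM left for all other genes together. Mup transcripts made up 42.3 to 49.0% of TPM in vehicle SP mice, 35.2 to 44.6% in vehicle HP, 17.5 to 22.4% in G108 SP and 17.95 to 29.3% in G108 HP. Each comparison is therefore given on 2 scales, TPM as deposited and TPM divided by a median-of-ratios factor per library, which sets the typical gene equal between libraries and was 0.68 to 0.96 in vehicle SP, 0.83 to 1.07 in vehicle HP, 1.17 to 1.54 in G108 SP and 0.84 to 1.24 in G108 HP. The factor did not always rise as Mup fell. Mouse 3 of G108 HP had 17.95% of TPM in Mup and a factor of 0.84, and what held its remaining TPM was not tested. Differences are on the scale of log2(value + 1), with the standard error (SE) from limma fitted to the 11839 genes of mean TPM of at least 1, and a gene is called at an adjusted p under 0.05. Depth recovered from the values was 27.8 to 45.0 M reads per library. All 8 hepatocyte markers were present, and they summed to 13545 to 37309 TPM. Mouse 4 of vehicle SP correlated least with its group (mean r = 0.939) and held, with mouse 3 of G108 HP, the most blood cell marker RNA (2109.6 and 2009 TPM, against 608 to 1398 elsewhere). In bulk liver, fewer cells of a type and less RNA per cell cannot be told apart.

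All 44 members passed the mean of 1 TPM, and none entered through 1 group alone, since the lowest value of any member in any library was 2.98 TPM (C1qc). Vitronectin (Vtn), which stabilises clots and blocks the terminal complement pore, was the most abundant, with a mean over 16 mice of 967 TPM. The gamma chain of fibrinogen (Fgg) followed at 605 TPM and C3 at 542 TPM. Fga and Fgb, the other fibrinogen chains, were at 379.9 and 369 TPM. Among complement members 2 lay at 500 TPM or more, 6 between 100 and 500, 13 between 10 and 100, and 3 under 10 (Cfp, Masp1 and C1qc). Among coagulation members 1 lay at 500 or more, 9 between 100 and 500, 9 between 10 and 100, and 1 under 10 (Pros1, at 7.16 TPM). The members therefore spanned more than 100 times in level, and Vtn alone gave 13.8% of their summed TPM.

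**Figure D1:**
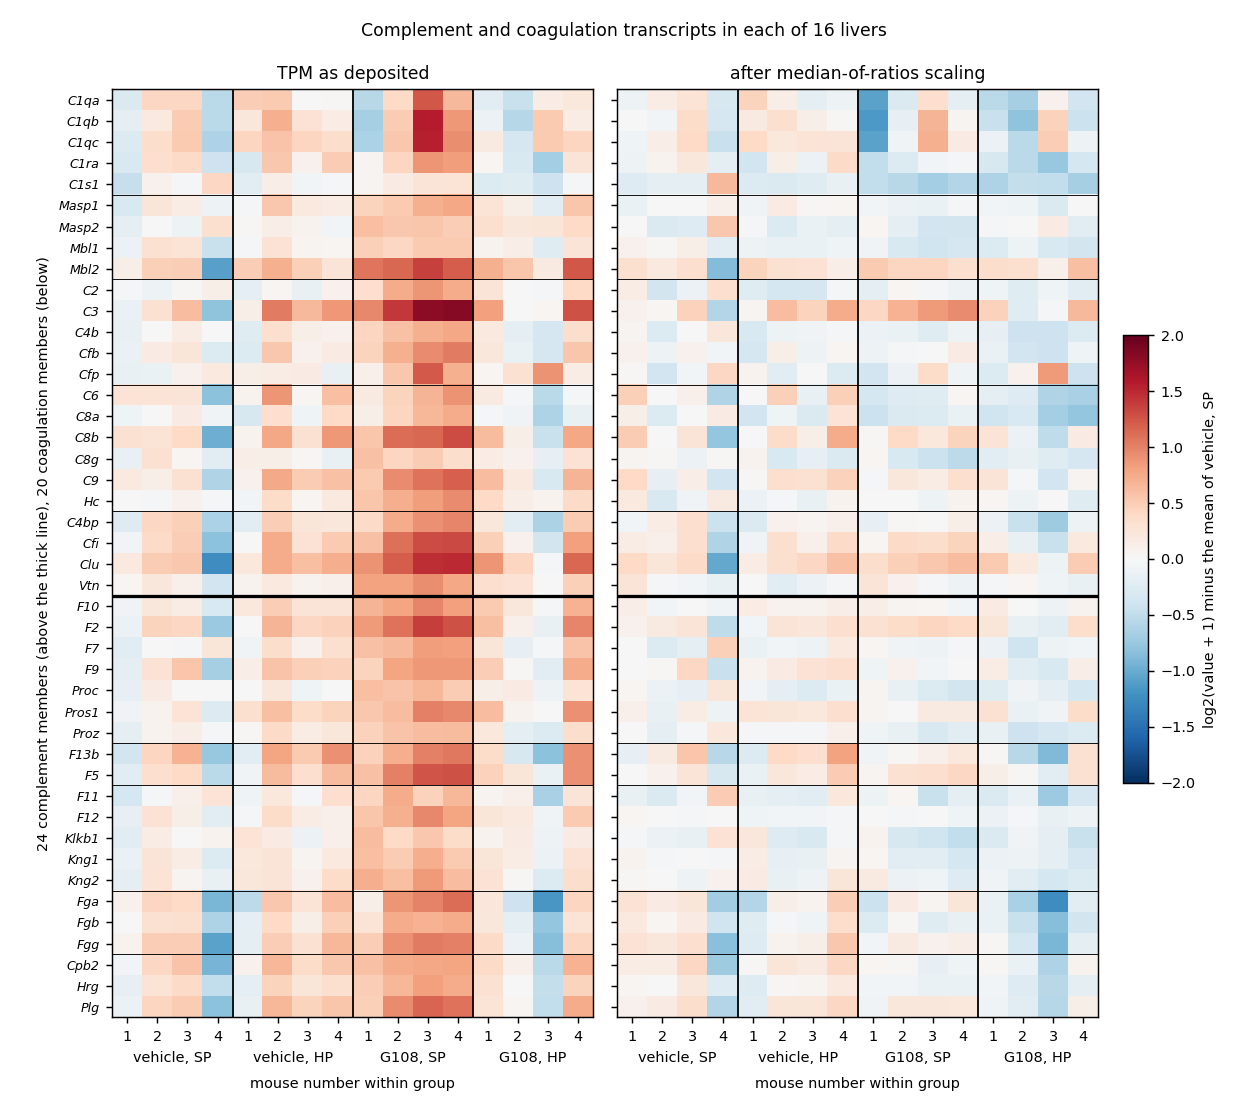
Each of the 44 members (rows, complement above the thick line and coagulation below, thin lines between roles) in each of 16 mice (columns, grouped by treatment and diet), as log2(value + 1) minus the mean of the 4 vehicle SP mice, in TPM (left) and after median-of-ratios scaling (right). In TPM all 44 members had their highest group mean in G108 SP, whereas after scaling 8 did.

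The summed TPM of the 24 complement members was 2510.1, 3059, 3094 and 1948 in the vehicle SP mice, 2656, 3597, 3014 and 3194 in vehicle HP, 4124, 4683, 5422 and 5273 in G108 SP, and 3414, 2843, 2392 and 4056 in G108 HP. That of the 20 coagulation members was 2672, 3555, 3525 and 1919 in vehicle SP, 2643, 3850.2, 3270.0 and 3785 in vehicle HP, 3965, 4827, 5344 and 5147 in G108 SP, and 3452, 2766, 2027 and 3937 in G108 HP. For both sums every G108 SP mouse lay above every mouse of the other groups, and G108 HP mice overlapped with both vehicle groups. The complement mean was 1.84 times as high with G108 as with vehicle on SP (4875 ± 594 against 2653 ± 541 TPM, SD, n = 4), and the coagulation mean 1.65 times (4821 ± 609 against 2918 ± 781 TPM). On HP the same ratios were 1.02 and 0.899. As a share of the TPM outside Mup genes, which leaves the Mup loss out of the sum, all members together took 1.02% ± 0.255 in vehicle SP, 1.08% ± 0.171 in vehicle HP, 1.21% ± 0.135 in G108 SP and 0.826% ± 0.226 in G108 HP (SD, n = 4), and these shares overlapped between G108 SP and both vehicle groups. Every G108 SP mouse (1.04 to 1.34%) lay above every G108 HP mouse (0.539 to 1.04%), the nearest mice being at 1.043 and 1.0397%. The total behind this share still holds the mitochondrial genes, some of which the paper reports as raised by high protein under G108. After median-of-ratios scaling, 0 of 44 members had every G108 HP mouse below every G108 SP mouse, beside 2.12% of all genes. Without mouse 4 of vehicle SP and mouse 3 of G108 HP, the means of the complement sum in those groups were 2888 and 3438 TPM and those of the coagulation sum 3251 and 3385 TPM.

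**Figure D2:**
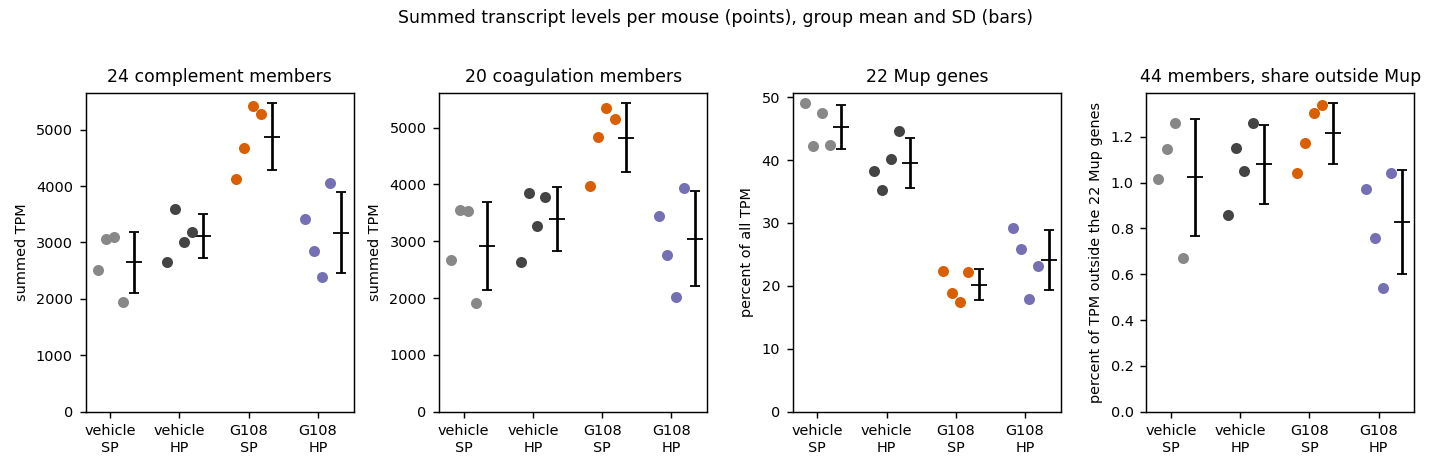
Summed TPM of the complement and coagulation members, percent of TPM from the 22 Mup genes, and percent of the TPM outside Mup genes taken by all 44 members, with a point per mouse and bars for group mean and SD. The sums were highest in the 4 G108 SP mice, where Mup was 17.5 to 22.4% of TPM. Mouse 3 of G108 HP, with Mup at 17.95%, had sums of 2392 (complement) and 2027 TPM (coagulation), inside the range of the vehicle SP mice. For the share outside Mup the G108 SP mice overlapped with both vehicle groups and lay above the G108 HP mice, the nearest being at 1.043 and 1.0397%.

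The first comparison asked what G108 did to these transcripts on the SP diet. In TPM, limma called 36 of 44 members higher and 0 lower, 18 of 24 in complement and 18 of 20 in coagulation, but 77.0% of all genes tested were called higher as well (0.608% lower, 77.6% in either direction), and after median-of-ratios scaling 0 of 44 were called, against 1.33% of all genes higher and 1.39% lower (2.72% in either direction). At an unadjusted p under 0.05 there were 37 of 44 in TPM, beside 79.8% of all genes. The members' median difference was 0.64 for complement and 0.73 for coagulation in TPM, beside 0.60 for all genes, and -0.07 and -0.03 after scaling, beside -0.01. At an unadjusted p under 0.05, 5 of 44 members differed after scaling (C3 and F2 higher, C1s1, Mbl1 and C8g lower), against 17.7% of all genes. With TPM rescaled after removal of the Mup and mitochondrial genes, limma also called 0 of 44, and 3 reached an unadjusted p under 0.05. Of all 11839 genes, 153 were called higher and 122 lower in that fit, and 1898 reached an unadjusted p under 0.05. The values of every G108 SP mouse exceeded those of every vehicle SP mouse in TPM for 15 complement and 14 coagulation members, where 56.0% of all genes did so, and after scaling for F2 alone, where 4.52% of all genes did so. Without mouse 4 of vehicle SP and mouse 3 of G108 HP, 34 of 44 were called higher in TPM, beside 8803 of all 11839 genes.

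The classical start is the C1 complex, in which 3 chains of C1q (C1qa, C1qb, C1qc) recognise bound antibody and the proteases C1r and C1s (C1ra, C1s1) cut C4 and C2. Limma called 0 of its 5 members in TPM on SP, beside 77.6% of all genes (0 at an unadjusted p under 0.05, beside 79.8%). The differences ran from 0.19 to 0.60, and after scaling the 5 lay from -0.58 to -0.07. Without mouse 1 of G108 SP the 3 C1q chains and C1ra were called higher in TPM (C1qa by 0.76, adjusted p = 0.0196; C1qb by 0.98, adjusted p = 0.00901; C1qc by 1.01, adjusted p = 0.00598), and C1ra also without mouse 2 or mouse 3 of vehicle SP. Of all genes, 77.3% were called higher without mouse 1 of G108 SP, and 78.5% and 75.0% without those vehicle mice. C1s1 was at 72.1, 105, 96.6 and 134 TPM in vehicle SP mice and at 104, 112, 119.7 and 121 TPM in G108 SP mice, so the groups overlapped. After scaling C1s1 was at 104, 109, 108.5 and 196 in vehicle SP and at 88.4, 84.9, 77.9 and 82.6 in G108 SP, so every G108 mouse lay below every vehicle mouse, as for 4.69% of all genes, with a difference of -0.58 ± 0.16 (SE, adjusted p = 0.0747). That difference was -0.66 without mouse 1 of vehicle SP (adjusted p = 0.0449) and -0.36 without mouse 4 of vehicle SP (adjusted p = 0.0312), both past the threshold. C1s1 was the only member called on SP in either fit, and the share of all genes called in them is not given here. C1s1 shares its locus with Gm16567 on the opposite strand and has a close copy, C1s2, and C1ra has a close copy, C1rb, so that reads of these genes may have been split by the counting.

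C1q is known to come from macrophages, in liver the Kupffer cells, and its chains were singled out after their values were seen. The summed TPM of the 3 chains was 25.5, 39.3, 43.7 and 20.1 in vehicle SP mice, 41.4, 48.1, 35.6 and 34.0 in vehicle HP, 19.2, 43.5, 87.6 and 55.0 in G108 SP, and 28.5, 21.4, 40.4 and 36.8 in G108 HP. The highest and the lowest sum were both in G108 SP, in mouse 3 and mouse 1, and all groups overlapped. The 10 markers of Kupffer cells and macrophages, none of them a member, summed to 118 TPM in mouse 3 of G108 SP, the highest of the 16 mice, and to 31.0 TPM in mouse 1, the lowest. Within a library the ratio of C1q to these markers ran from 0.488 to 0.899, a range of 1.84 times, while C1q itself ranged over 4.55 times. C1ra and C1s1 together ranged over 2.02 times in level and over 3.43 times relative to the markers. Limma called 0 of the 8 markers tested on SP in TPM, beside 77.6% of all genes (0 at an unadjusted p under 0.05, beside 79.8%). After scaling 0 were called, beside 2.72% (1 at an unadjusted p under 0.05, beside 17.7%). The part of these cells in the C1q values was not tested.

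**Figure D3:**
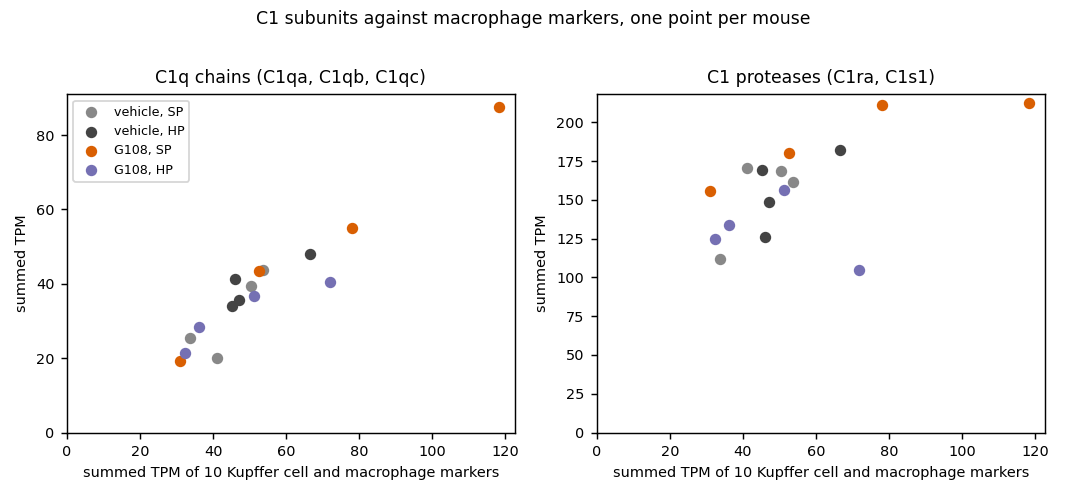
Summed TPM of the 3 C1q chains (left) and of C1ra and C1s1 (right) in each of 16 mice, against the summed TPM of 10 Kupffer cell and macrophage markers in the same library. The C1q points run from mouse 1 to mouse 3 of G108 SP along the marker axis, 19.2 to 87.6 TPM, whereas the proteases lie between 105 and 213 TPM.

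The lectin start consists of the mannose-binding lectins Mbl1 and Mbl2, which recognise microbial sugars, and their proteases Masp1 and Masp2. On SP each of the 4 was called higher with G108 in TPM, by 0.49 to 1.20, as were 77.0% of all genes. After scaling 0 of 4 were called, beside 2.72% of all genes, and 3 of the 4 differences were negative (-0.28 to 0.42). Mbl2 had the largest difference in TPM, 1.20 ± 0.29 (SE, adjusted p = 0.0032), with a mean of 141 ± 57.0 TPM in vehicle SP and 299.5 ± 26.7 in G108 SP (SD, n = 4). Masp2 varied little between mice of a group in TPM, at 60.6 ± 10.0 TPM in vehicle SP and 88.1 ± 2.58 in G108 SP. After scaling its spread was wider, at 77.5 ± 22.6 in vehicle SP and 65.0 ± 9.56 in G108 SP (SD, n = 4). Mbl1 lost its call in TPM without mouse 4 of vehicle SP (adjusted p = 0.0518).

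The convertases are the enzymes that cleave C3 and C5, built from C4 (C4b) and C2 or from C3 and factor B (Cfb), with properdin (Cfp) as the stabiliser of the alternative form. All 5 members were called higher in TPM on SP, by 0.63 to 1.50, as were 77.0% of all genes. After scaling 0 of 5 were called, beside 2.72% of all genes. C3 was at 277, 375, 465 and 173 TPM in vehicle SP mice, 327, 622, 472 and 553 in vehicle HP, 589.6, 810.1, 1052 and 1069.8 in G108 SP, and 535, 303, 310.1 and 735 in G108 HP. On SP every G108 mouse was above every vehicle mouse, as for 56.0% of all genes, whereas on HP the groups overlapped. The C3 difference on SP was 1.50 ± 0.34 in TPM (SE, adjusted p = 0.00219), the largest of the 44, and 0.72 ± 0.24 after scaling (adjusted p = 0.135), again the largest, with overlapping groups. C2 was at 18.4, 17.5, 19.4 and 20.7 TPM in vehicle SP mice, 16.5, 19.6, 17.0 and 20.1 in vehicle HP, 24.3, 32.4, 35.7 and 32.5 in G108 SP, and 23.0, 18.9, 18.6 and 25.2 in G108 HP. The G108 SP mice lay above all vehicle mice, with a C2 difference on SP of 0.68 ± 0.14 in TPM (adjusted p = 0.00169) that turned to -0.07 ± 0.13 after scaling (adjusted p = 0.78). C2 and Cfb overlap the annotated gene Gm20547 on their own strand, and C4b has a close copy, C4a. Properdin, made mainly by leukocytes, was highest in mouse 3 of G108 SP (17.9 TPM) and mouse 3 of G108 HP (13.98 TPM). These libraries held the highest and the third highest sum of macrophage markers. After scaling it was highest in mouse 3 of G108 HP (16.7) and mouse 4 of vehicle SP (12.1), the libraries with the most blood cell marker RNA. The cell source of these values was not tested. The call of properdin in TPM was lost without mouse 3 of G108 SP (adjusted p = 0.0603).

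The terminal components assemble the pore, starting from C5 (Hc) and going on through C6, the 3 chains of C8 (C8a, C8b, C8g) and C9. In TPM 5 of 6 were called higher on SP, by 0.47 to 1.03, as were 77.0% of all genes. C6 was not called (0.55 ± 0.27, adjusted p = 0.0698, or 0.0418 without mouse 1 of G108 SP). After scaling 0 of 6 were called, beside 2.72% of all genes, and 4 of the 6 differences were negative. Hc was at 59.6, 58.8, 63.5 and 58.2 TPM in vehicle SP mice, 58.0, 77.7, 61.5 and 68.8 in vehicle HP, 88.2, 99.4, 107 and 116 in G108 SP, and 79.0, 65.9, 62.8 and 78.8 in G108 HP. Its vehicle SP mice lay close together, between 58.2 and 63.5 TPM, and all below the G108 SP mice, as for 56.0% of all genes. The Hc difference on SP was 0.76 ± 0.14 in TPM (adjusted p = 0.000876) and -0.01 ± 0.11 after scaling (adjusted p = 0.972). The chains of C8, which circulate as 1 protein, differed in size of response: C8b by 1.03 ± 0.32, C8a by 0.49 ± 0.19 and C8g by 0.47 ± 0.15 in TPM, and by 0.27, -0.28 and -0.31 after scaling, and the difference between the chains was not tested. C8a lost its TPM call without any of mice 1 and 4 of vehicle SP and mice 3 and 4 of G108 SP (adjusted p of at most 0.0937). Hc overlaps Gm13449 on the opposite strand.

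The inhibitors limit the cascade: C4bp and factor I (Cfi) inactivate C4b, factor I also C3b, and clusterin (Clu) and vitronectin block pore assembly. All 4 were called higher in TPM on SP, by 0.75 to 1.27, as were 77.0% of all genes. After scaling 0 of 4 were called, beside 2.72% of all genes, and the differences ran from -0.005 to 0.49. Vtn was at 785, 891, 815 and 586 TPM in vehicle SP mice, 802, 869, 802 and 813 in vehicle HP, 1331, 1332, 1442 and 1301 in G108 SP, and 955, 929, 757 and 1059 in G108 HP. All 4 G108 SP mice, at 1301 TPM or more, stood above every other mouse, the highest of which was at 1059 TPM in G108 HP. For 56.0% of all genes every G108 SP mouse lay above every vehicle SP mouse. The Vtn difference on SP was 0.83 ± 0.15 in TPM (adjusted p = 0.000772) and 0.05 ± 0.12 after scaling (adjusted p = 0.815). Clu was at 196, 246, 249 and 72.1 TPM in vehicle SP mice, 199, 287, 261 and 283 in vehicle HP, 320.4, 398, 480.1 and 483 in G108 SP, and 316, 232, 169 and 379.9 in G108 HP. Mouse 4 of vehicle SP was far below the others, and the Clu difference on SP was 1.27 ± 0.34 in TPM (adjusted p = 0.00485), 0.85 without that mouse, and 0.49 ± 0.26 after scaling (adjusted p = 0.324). C4bp lost its TPM call without any of mice 1 and 4 of vehicle SP and mice 3 and 4 of G108 SP (adjusted p of at most 0.0805).

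The vitamin K dependent coagulation proteins are prothrombin (F2), factors VII, IX and X (F7, F9, F10) and proteins C, S and Z (Proc, Pros1, Proz). All 7 were called higher in TPM on SP, by 0.57 to 1.15, as were 77.0% of all genes. After scaling 0 of 7 were called, beside 2.72% of all genes, and 4 of the 7 differences were negative (-0.19 to 0.37). F10 was at 75.0, 92.0, 87.6 and 63.7 TPM in vehicle SP mice, 91.2, 111, 94.8 and 94.8 in vehicle HP, 127, 136, 156 and 140.0 in G108 SP, and 113, 92.7, 77.4 and 128 in G108 HP. Between G108 and vehicle the groups were apart on SP, as for 56.0% of all genes, and overlapped on HP. The F10 difference on SP was 0.82 ± 0.17 in TPM (adjusted p = 0.00148) and 0.05 ± 0.08 after scaling (adjusted p = 0.776). Proc was at 163, 204, 183 and 184 TPM in vehicle SP mice, 185, 213, 173 and 184 in vehicle HP, 278, 273, 292 and 262 in G108 SP, and 198, 206, 169.7 and 221 in G108 HP. It had the smallest spread between mice of a group among the 44 members in TPM (SD 0.13 on the log2 scale), and its difference on SP was 0.59 ± 0.13 in TPM (adjusted p = 0.00189) and -0.18 ± 0.12 after scaling (adjusted p = 0.413). F2, the precursor of thrombin, differed most, by 1.15 ± 0.28 in TPM (adjusted p = 0.00305), and after scaling was at 224, 239.9, 253 and 148 in vehicle SP and 262, 273, 286 and 279 in G108 SP, the groups being apart at 0.37 ± 0.17 (adjusted p = 0.27). F9 lost its call in TPM without mouse 4 of vehicle SP (adjusted p = 0.052).

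Factor V (F5), the cofactor that speeds thrombin formation, and F13b, the carrier subunit of the enzyme that cross-links fibrin, differed by 1.03 ± 0.26 (adjusted p = 0.00364) and 0.81 ± 0.37 (adjusted p = 0.0584) in TPM on SP, and by 0.27 and 0.06 after scaling. F13b was called in TPM without any of mice 2 and 3 of vehicle SP, mouse 1 of vehicle HP, mouse 1 of G108 SP and mice 3 and 4 of G108 HP (adjusted p of at least 0.0244). The contact and kinin members are factors XI and XII (F11, F12), prekallikrein (Klkb1) and the kininogens Kng1 and Kng2, which set off clotting on charged surfaces and release bradykinin. All 5 were called higher in TPM on SP, by 0.48 to 0.75, as were 77.0% of all genes. After scaling 0 of 5 were called, beside 2.72% of all genes, and all 5 differences were negative (-0.28 to -0.02). F12 was at 145, 198, 176 and 138 TPM in vehicle SP mice, 160.3, 209, 179.6 and 174 in vehicle HP, 240.0, 266, 316 and 282 in G108 SP, and 192, 187, 154 and 235 in G108 HP. The groups on SP did not overlap, as for 56.0% of all genes, with an F12 difference of 0.75 ± 0.16 in TPM (adjusted p = 0.00191). After scaling F12 was the steadiest of the 44 members, at 204 ± 4.85 in vehicle SP, 196 ± 2.85 in vehicle HP, 201 ± 6.05 in G108 SP and 189.9 ± 6.16 in G108 HP (SD, n = 4), and the difference on SP was -0.02 ± 0.07 (adjusted p = 0.88). F11 lost its call in TPM without mouse 1 of vehicle SP (adjusted p = 0.056), and Kng1 and Kng2 are close copies whose reads may have been split.

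Fibrinogen is built from 3 chains whose genes lie side by side on mouse chromosome 3 (GRCm38), Fgg at 83007724 to 83015049 and Fga at 83026076 to 83033627 on the plus strand and Fgb at 83040141 to 83049863 on the minus strand. The 150 bases before each gene's start in GENCODE are shown because the chains are made in matched amounts and are textbook targets of C/EBP factors and of interleukin 6, and those of C3 and Hc because C3 had the largest difference on both scales and Hc held the only HNF1 match. Sequences are from the RefSeq promoter table (GRCm38.p6), read 5′ to 3′ on the gene's own strand, with motif matches in capitals.
Fga, chr3:83025926-83026075, plus strand, C/EBP match: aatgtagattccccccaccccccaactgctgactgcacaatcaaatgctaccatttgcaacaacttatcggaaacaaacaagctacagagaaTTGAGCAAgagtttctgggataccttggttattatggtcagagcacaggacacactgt
Fgb, chr3:83049864-83050013, minus strand, interleukin 6 response element then C/EBP match: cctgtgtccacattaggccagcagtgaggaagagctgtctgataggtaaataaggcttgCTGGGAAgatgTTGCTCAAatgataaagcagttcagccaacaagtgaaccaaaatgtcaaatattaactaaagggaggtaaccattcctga
Fgg, chr3:83007574-83007723, plus strand, interleukin 6 response element match: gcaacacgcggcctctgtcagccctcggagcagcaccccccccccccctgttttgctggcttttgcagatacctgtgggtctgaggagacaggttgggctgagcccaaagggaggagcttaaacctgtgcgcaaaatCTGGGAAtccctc
C3, chr17:57228137-57228286, minus strand, C/EBP match: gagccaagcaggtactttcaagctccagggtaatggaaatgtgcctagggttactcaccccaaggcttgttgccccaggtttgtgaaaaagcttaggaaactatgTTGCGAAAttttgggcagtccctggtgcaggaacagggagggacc
Hc, chr2:35061439-35061588, minus strand, HNF1 match: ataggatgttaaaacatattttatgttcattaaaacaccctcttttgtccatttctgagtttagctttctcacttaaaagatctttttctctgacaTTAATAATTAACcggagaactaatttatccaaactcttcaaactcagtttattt

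Motifs were searched on both strands in the 250 bases before the RefSeq start of the 34 members with an entry, 17 of complement and 17 of coagulation, and in 27025 promoters in all, and no match of a motif overlapped that of another in the members. The C/EBP motif TTGCNNAA was in 3 of 17 complement and 7 of 17 coagulation promoters (Fga, Fgb, F9, F11, Klkb1, Hrg and Kng2), beside 9.55% of all. The interleukin 6 response element CTGGGAA was in 2 of 17 and 3 of 17, beside 9.08%. The HNF1 motif was in 1 of 17 (Hc) and 0 of 17, beside 0.0629%. The cAMP response element TGACGTCA, the motif of the factor that glucagon signalling acts on, was in 0 of 17 and 1 of 17 (Cpb2), beside 1.62%, and the HNF4 motif CAAAGTCCA was in 0 of 34, beside 0.381%. These are matches of letters in a window and not shown to be sites.

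Fgg was at 487, 651, 652 and 220.0 TPM in vehicle SP mice, 405, 652, 573 and 732 in vehicle HP, 650.4, 871, 949 and 933 in G108 SP, and 603, 428, 256 and 625 in G108 HP. Fga was at 323, 409.9, 401 and 161 TPM in vehicle SP mice, 211, 443, 367 and 469 in vehicle HP, 332, 564, 609 and 658 in G108 SP, and 357, 229, 135 and 409 in G108 HP. Fgb was at 313, 389, 392 and 203 TPM in vehicle SP mice, 277, 412, 338 and 438 in vehicle HP, 381, 526, 511 and 523 in G108 SP, and 366, 273, 183 and 378 in G108 HP. The same mice were lowest in their groups for each chain, mouse 4 of vehicle SP, mouse 1 of vehicle HP, mouse 1 of G108 SP and mouse 3 of G108 HP, and the groups on SP overlapped for all 3 chains. In TPM the chains differed on SP by 0.86 ± 0.34 (Fgg, adjusted p = 0.0302), 0.78 ± 0.38 (Fga, adjusted p = 0.0696) and 0.62 ± 0.25 (Fgb, adjusted p = 0.0376), and after scaling by 0.09, 0.01 and -0.16 (adjusted p of at least 0.618). Both calls were lost without any of mice 1 and 4 of vehicle SP and mice 2, 3 and 4 of G108 SP (adjusted p of at most 0.114 for Fgg and 0.13 for Fgb), and Fga was called without mouse 1 of G108 SP or mouse 3 of G108 HP (adjusted p of at least 0.031). The ratio of Fgg to Fgb within a library ran from 1.08 to 1.86 and that of Fga to Fgb from 0.734 to 1.26, both ratios being highest in mice 3 and 4 of G108 SP. Fgg overlaps Gm30097 on the opposite strand.

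Fibrin breakdown and its control are represented by plasminogen (Plg), the precursor of plasmin, histidine-rich glycoprotein (Hrg), which binds plasminogen, and Cpb2, the carboxypeptidase that protects fibrin from plasmin. All 3 were called higher in TPM on SP, by 0.92 ± 0.30, 0.68 ± 0.23 and 0.72 ± 0.29, as were 77.0% of all genes. None was called after scaling (0.15, -0.09 and -0.05), beside 2.72% of all genes. Plg was at 265 ± 99.3 TPM in vehicle SP and 481 ± 94.8 in G108 SP (SD, n = 4). Cpb2 lost its call in TPM without any of mice 1 and 4 of vehicle SP and mice 2, 3 and 4 of G108 SP (adjusted p of at most 0.135).

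The second comparison asked the same of G108 on the HP diet. Limma called 0 of 44 members in TPM and 0 after scaling, against 1.11% and 1.22% of all genes. At an unadjusted p under 0.05 there were 0 of 44 in TPM (11.9% of all genes) and 6 of 44 after scaling (11.3% of all genes), the 6 being C1ra, C6, C8a, Fgb, Kng2 and Proz, each lower with G108. The median difference was -0.10 for complement and -0.14 for coagulation in TPM, where the median of all genes was 0.09, and -0.22 and -0.26 after scaling, where it was near 0 (-0.004). After scaling 39 of 44 differences were below 0, among them all 20 of coagulation, and the lowest was that of C6 (-0.62 ± 0.21, adjusted p = 0.214). C6 was at 35.7, 49.8, 32.0 and 50.1 scaled TPM in vehicle HP and 31.5, 29.7, 23.0 and 22.3 in G108 HP, so that the groups were apart, as they were for C1s1 and Proz, 3 of 44 members where 3.95% of all genes were apart in this direction. In TPM only Masp2 had groups apart, at 61.0, 66.2, 62.8 and 58.0 TPM in vehicle HP and 75.6, 70.7, 71.0 and 79.7 in G108 HP, a difference of 0.26 ± 0.13 (adjusted p = 0.451), where 7.67% of all genes were apart and higher. Without mouse 4 of vehicle SP, C1s1 was called lower with G108 on HP after scaling (-0.33, adjusted p = 0.0373). It was the only member called there, and the share of all genes called in that fit is not given here. Without mouse 4 of vehicle SP and mouse 3 of G108 HP, the medians in TPM were 0.06 and 0.03, above 0 where they had been below, and still under the median of all genes (0.16).

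**Figure D4:**
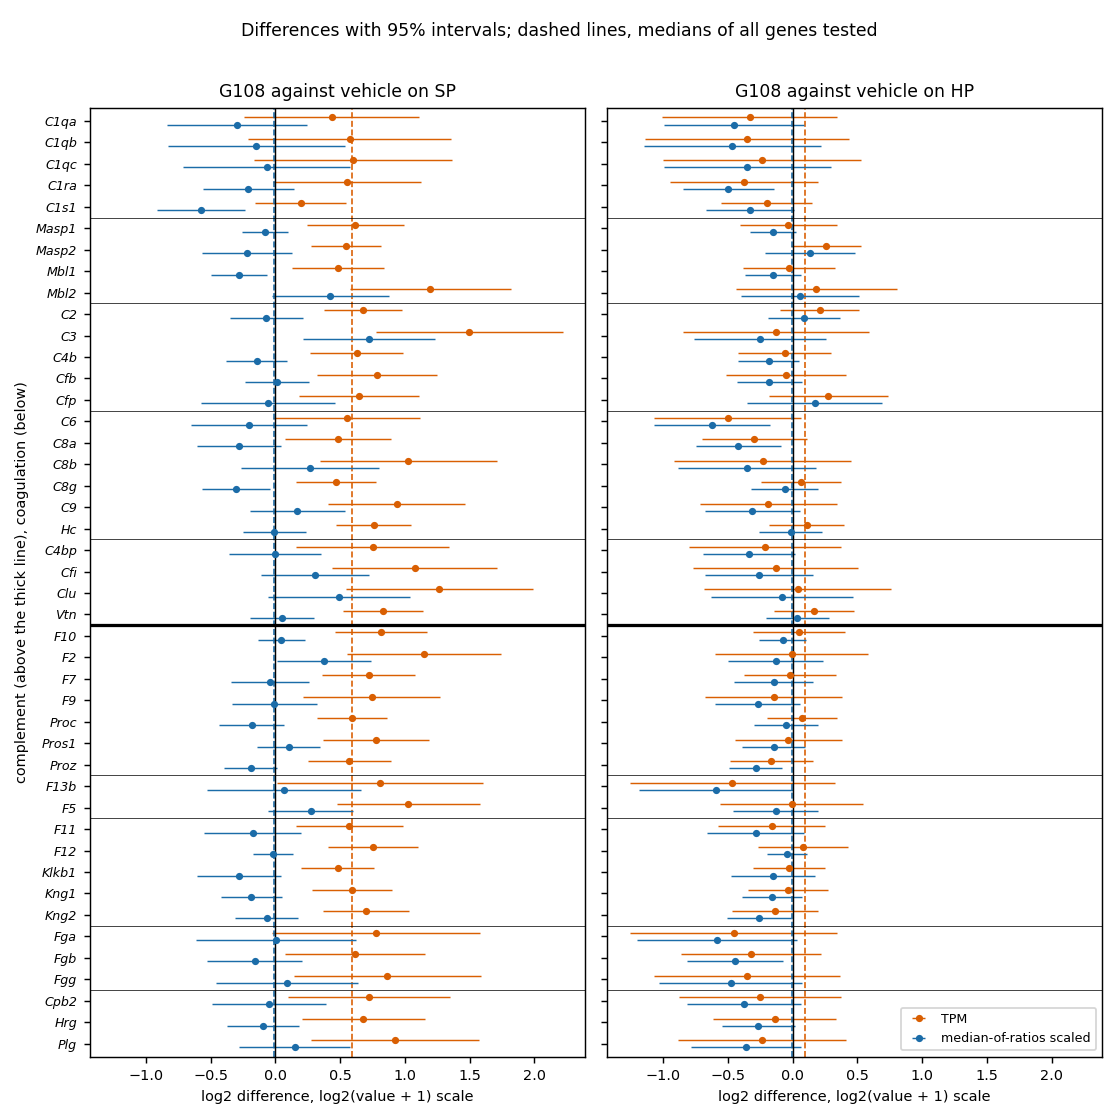
Difference between G108 and vehicle for each member on SP (left) and HP (right), with 95% confidence intervals from limma, in TPM (orange) and after median-of-ratios scaling (blue), dashed lines marking the median of 11839 genes on each scale. On SP the orange points sit around the median of all genes (0.60) and the blue points around 0, and on HP 39 of the 44 blue points lie below 0.

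The third comparison set HP against SP in G108 treated mice, which asks what protein supplementation changed under the drug. Limma called 0 of 44 members, and 0 of all genes, in TPM, where all 44 differences were negative, and 0 after scaling, where 36 of 44 were. The medians in TPM were -0.57 for complement and -0.59 for coagulation (all genes, -0.35), and after scaling -0.13 and -0.14 (all genes, 0.0015). At an unadjusted p under 0.05 there were 33 of 44 in TPM, beside 45.0% of all genes, and 2 of 44 after scaling (C3 and Cfb), beside 5.40%. In TPM every G108 HP mouse lay below every G108 SP mouse for 9 of 24 complement and 11 of 20 coagulation members, beside 20.5% of all genes, and after scaling for 0 of 44, beside 2.12%. The largest differences were those of Fga (-1.01 ± 0.38, adjusted p = 0.0816), C3 (-0.96 ± 0.34, adjusted p = 0.0777) and Fgg (-0.90 ± 0.34, adjusted p = 0.082) in TPM, and -0.56, -0.51 and -0.45 after scaling (adjusted p = 0.858 for each). The count in TPM turned on single mice: it was 34 of 44 lower without mouse 4 of G108 HP, 24 without mouse 1 of G108 SP and 23 without mouse 4 of vehicle SP, when 42.4%, 25.3% and 14.6% of all genes were called lower, and 0 without any other single mouse. Mouse 4 of G108 HP had the highest TPM of its group for 38 of the 44 members and mouse 3 the lowest for 37.

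With vehicle, HP against SP gave 0 calls among the 44 members, and among all genes, on both scales. The medians were 0.20 for complement and 0.23 for coagulation in TPM (all genes, 0.14), and -0.0014 and 0.03 after scaling. Protein S (Pros1), a cofactor of protein C, was the only member at an unadjusted p under 0.05 on either scale, beside 3.16% of all genes in TPM and 3.94% after scaling. It was at 4.69, 5.30, 6.20 and 3.93 TPM in vehicle SP mice and 6.44, 8.08, 6.74 and 7.09 in vehicle HP mice. Its groups were apart on both scales, in TPM by 0.43 ± 0.19 (adjusted p = 0.727) and after scaling by 0.27 ± 0.11 (adjusted p = 0.832), where 1.33% and 0.938% of all genes were apart and higher.

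The interaction asked whether the response to G108 differed between the diets. Limma called 0 of 44 members and 0 of all genes on both scales, with 37 of 44 at an unadjusted p under 0.05 in TPM (48.0% of all genes) and 1 of 44, C3, after scaling (7.21%). All 44 values were negative in TPM, with medians of -0.81 for complement and -0.83 for coagulation (all genes, -0.49), and 35 of 44 were negative after scaling, with medians of -0.17 and -0.22 (all genes, 0.01). C3 had the largest value, -1.63 ± 0.48 in TPM (adjusted p = 0.0799) and -0.98 ± 0.34 after scaling (adjusted p = 0.575). In TPM 36 of 44 were called without mouse 4 of G108 HP, 28 without mouse 1 of G108 SP and 24 without mouse 2 of vehicle SP, when 43.7%, 33.3% and 29.2% of all genes were called lower.

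Complement was set against coagulation by the log2 ratio of their summed TPM within a library, which no scaling of the library can change. It was -0.09, -0.22, -0.19 and 0.02 in vehicle SP mice, 0.01, -0.10, -0.12 and -0.25 in vehicle HP, 0.06, -0.04, 0.02 and 0.03 in G108 SP, and -0.02, 0.04, 0.24 and 0.04 in G108 HP. The group means were -0.12 ± 0.11, -0.11 ± 0.10, 0.02 ± 0.04 and 0.08 ± 0.11 (SD, n = 4), so that both G108 means lay above both vehicle means by 0.14 on SP and 0.19 on HP, with 1 or more mice of each vehicle group overlapping those of the G108 group on the same diet. Fibrinogen chains made up 28.3 to 43.3% of coagulation TPM and C3 made up 8.86 to 20.3% of complement TPM. Without these 4 genes the difference on SP was 0.03 and that on HP was 0.10, and with each member given equal weight, as the mean of log2(TPM + 1), the difference was -0.01 on SP and 0.05 on HP. No test was made of this ratio, since its members were chosen.

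**Figure D5:**
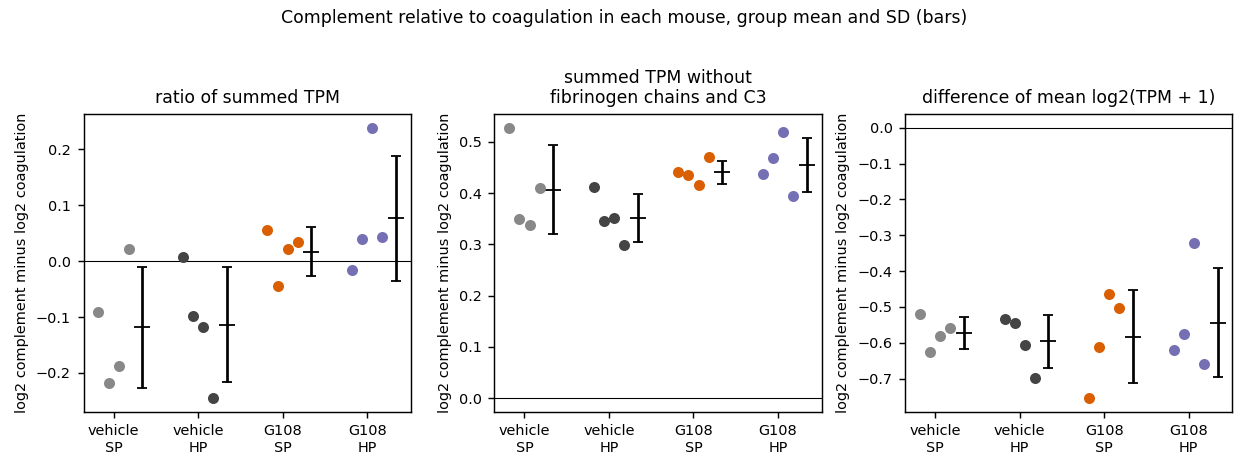
Log2 of complement over coagulation in each mouse as the ratio of summed TPM (left), the same without the fibrinogen chains and C3 (middle), and as the difference of mean log2(TPM + 1) over members (right), with bars for group mean and SD. In the left panel the group means are -0.12, -0.11, 0.02 and 0.08, and in the right panel the groups overlap widely.

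The spread between mice of a group was close in the 2 cascades and wider in some roles than in others. Pooled over the 4 groups, the SD of log2(TPM + 1) had a median of 0.35 for complement and 0.30 for coagulation, and of 0.24 and 0.22 after scaling. It was widest for Fga (0.59), F13b (0.58), C1qb (0.58), C1qc (0.57) and Clu (0.53) in TPM, and after scaling the same 5 genes stood highest (C1qb 0.49, C1qc 0.46, Fga 0.44, F13b 0.43, Clu 0.39). By role, the fibrinogen chains had a median of 0.39 after scaling and the C1 complex one of 0.39, whereas the contact and kinin members and the vitamin K dependent proteins had 0.15 each. In TPM mouse 4 of vehicle SP was the lowest of all 16 for 11 of 24 complement and 11 of 20 coagulation members.

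Several members are neighbours in the genome (GRCm38). F7, F10 and Proz lie together on chromosome 8 between 13026034 and 13076026, all on the plus strand, and differed on SP by 0.72, 0.82 and 0.57 in TPM and by -0.04, 0.05 and -0.19 after scaling. Hrg, Kng2 and Kng1 lie on chromosome 16 between 22951072 and 23082078 and differed by 0.68, 0.70 and 0.59 in TPM and -0.09, -0.07 and -0.19 after scaling. The genes of C8b and C8a lie next to each other on chromosome 4 (104766317 to 104804548 and 104815679 to 104876398) on opposite strands, and had the unequal differences given above. The C1q chains lie within chromosome 4, 136880129 to 136898803, all on the minus strand, with differences of 0.43 (C1qa), 0.57 (C1qb) and 0.60 (C1qc) in TPM. C4b, Cfb and C2 lie on chromosome 17 between 34728380 and 34898265, all on the minus strand, and differed by 0.63, 0.79 and 0.68.

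Other genes of both cascades, receptors, regulators and serpins that were listed apart from the members, were read for comparison. On SP, 7 of the 16 other complement genes tested and 12 of the 15 other coagulation genes were called higher in TPM and 0 lower. Of all genes, 77.0% were called higher. After scaling 0 of the 31 other genes were called, beside 2.72% of all genes. At an unadjusted p under 0.05 there were 0 and 2 of these other genes, beside 17.7% of all genes. Their medians were 0.58 and 0.83 in TPM and -0.08 and 0.06 after scaling. The 4 with the smallest adjusted p in TPM were Habp2, a protease that can activate factor VII (0.95 ± 0.18, adjusted p = 0.00111), antithrombin (Serpinc1, 0.88 ± 0.20, adjusted p = 0.00205), Cd59a, which blocks the pore on the cell's own membrane (0.65 ± 0.15, adjusted p = 0.00222), and the plasmin inhibitor Serpinf2 (1.06 ± 0.25, adjusted p = 0.00278). After scaling these were 0.20, 0.11, -0.10 and 0.29 (adjusted p of at least 0.299). On HP 0 of the 31 were called on either scale, beside 1.11% of all genes in TPM and 1.22% after scaling. At an unadjusted p under 0.05 there were 0 in TPM and 3 after scaling, beside 11.9% and 11.3%.

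Set beside other secreted proteins, the members moved unlike Mup, as did most genes tested. On SP, 77.0% of all genes were called higher with G108 in TPM and 0.608% lower (median 0.60). After scaling 1.33% were called higher and 1.39% lower (median -0.01), and 17.7% reached an unadjusted p under 0.05. Of the 22 Mup genes, 17 were called lower and 1 higher with G108 on SP in TPM, and 18 lower after scaling, with medians of -1.28 and -1.99. Of 22 other abundant secreted proteins of hepatocytes, such as albumin and apolipoproteins, 17 were called higher and 0 lower in TPM (median 0.79) and 0 after scaling (median 0.02, 4 at an unadjusted p under 0.05). Of 13 acute phase proteins tested, which rise in inflammation, 6 were called higher and 1 lower in TPM, and 0 higher and 4 lower after scaling (the Orm1, Orm2, Orm3 and Saa4 genes), with medians of 0.28 and -0.39. Orm3, called lower on both scales, fell by 1.59 ± 0.32 in TPM (adjusted p = 0.00135) and by 2.06 ± 0.38 after scaling (adjusted p = 0.00889). On HP 12 of 22 Mup genes were called lower in TPM and 8 after scaling, beside 0.296% and 0.583% of all genes. Of the 22 other secreted proteins 0 were called on either scale, beside 1.11% and 1.22% of all genes. At an unadjusted p under 0.05 there were 0 in TPM and 1 after scaling, beside 11.9% and 11.3%.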

How the data were processed

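Liver RNA of 16 mice was sequenced, 1 library per mouse. The authors aligned reads to GRCm38 with HISAT2 2.0.5 and counted them with featureCounts, and the TPM deposited by the authors are the values used, in 1 table whose columns were matched to the sample records. Whether counting used strand is not given in the sources used here. Symbols, coordinates and exon lengths came from GENCODE for GRCm38. The members and gene lists were chosen with earlier results of these data known.

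Genes of mean TPM of at least 1 were fitted as log2(TPM + 1) in limma 3.58.1 (R 4.3.3), with 1 mean per group, an intensity trend and Benjamini-Hochberg adjustment over all 11839 genes. TPM are not counts, so no count test was the main result. Values in every mouse are given for the 3 most abundant members and the 3 called with the smallest adjusted p in each cascade, plus some singled out after their values were seen. The 4 genes named from the other complement and coagulation genes had the smallest adjusted p there, and the acute phase genes were named after their values were seen. Depth was recovered from TPM steps: 98.8% of 138162 low values differed from a whole number of reads by at most 0.02. Members held 125 to 131911 reads per library, and relative counting error is largest for those with the fewest. The model was tested on simulated data. Alternatives were another scaling, pseudocount, filter, the replicate block and leaving out mice. No library duplicated another. Nothing names litters, so mice were treated as independent, and p-values weigh group differences against the spread between mice within groups.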

Additional observations from a re-analysis of the deposited data

Results flagged for a closer look

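In 56 sets of 4 mice, made of the members with values given in every mouse and the sums, the gap from the most distant mouse to the next was compared with the whole range, and chance alone marks about 1 set in 20. Mouse 2 of vehicle HP stood apart from its group for Vtn, at 869 TPM where the others were at 802 to 813 (gap over range 0.841). Mouse 1 of G108 SP stood apart for Fgb, at 381 TPM where the others were at 511 to 526 (gap over range 0.891). Vtn and Fgb had no such mouse in any other group.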

How the results depend on the processing

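The count of members called on SP, 36 in TPM, was 31 without a filter on low values, 33 with a replicate block and 29 to 43 when a mouse was left out, but 0 with median-of-ratios scaling, alone or with the block (0 to 1 leaving out a mouse), and 0 with TPM rescaled without Mup and mitochondrial genes. Of all genes, 77.0% were called higher on SP in TPM, and 65.6 to 78.5% when a mouse was left out. With median-of-ratios scaling 2.72% were called. With the rescaled TPM 153 of 11839 genes were called higher and 122 lower. Replicate numbers share only a name: the deviations of same-numbered mice correlated from -0.575 to 0.527, over 0.1 in 8 of 24 pairs, and the block changed no other count of calls. Leaving out a mouse gave 0 to 1 calls on HP after scaling. The share of all genes called in the scaled fits that left out a mouse is not given here. In TPM it gave 0 to 34 for HP against SP with G108 and 0 to 36 for the interaction. Of all genes, 0 to 42.4% and 0 to 43.7% were called lower in those fits. The sign on SP was followed over all settings for 11 members only, the most abundant and those called with the smallest adjusted p. Among these 11, the difference turned negative with median-of-ratios scaling, with or without the block, for Hc (-0.0083), C2 (-0.0702), Fgb (-0.160), Proc (-0.183) and F12 (-0.0216). With TPM rescaled without Mup and mitochondrial genes it did so for C2 (-0.00771), Fgb (-0.096) and Proc (-0.119). The median difference of all genes on SP was 0.60 in TPM and -0.01 with median-of-ratios scaling. It was 0.05 with TPM rescaled without Mup and mitochondrial genes. Many members outside these 11 were also negative after median-of-ratios scaling, as given by role above. Why some members turned negative and others did not was not tested. The complement to coagulation difference on SP was -0.011 from mean log2 levels, 0.0342 without the fibrinogen chains and C3, and 0.103 to 0.182 leaving out a mouse. On HP it was 0.0524 from mean log2 levels and 0.136 to 0.23 leaving out a mouse. Precision is set by 4 mice per group, since members held 125 or more reads in every library.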
